A study of Mus musculus with 28 samples.

Results

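Expression of 9 complement genes was followed across 28 bulk RNA-seq libraries of mouse primary microglia. The genes were chosen by name as a set of complement components and receptors: the C1q chains C1qa, C1qb and C1qc, the protease-like gene C1rl, the components C4b, C3 and Cfb, and the receptors C3ar1 and C5ar1. All 9 were found among 54436 gene entries, and all 9 passed the filter on low counts in every fit. The cells came from APOE3S/S mice, whose genotype is labelled Christchurch, or from APOE3 mice, labelled WT. They had been given tau or amyloid, or were labelled Control (called untreated here). Whether Control cells received a vehicle is not stated in the labels. The groups were APOE3S/S tau (6 libraries), APOE3 tau (6), APOE3S/S amyloid (3), APOE3 amyloid (3), APOE3S/S untreated (4) and APOE3 untreated (6). How the alleles were made, whether they are human or mouse sequence, the form, dose and duration of tau and amyloid, the age of the mice and any pooling of animals are not stated in the labels. Nothing says that libraries of a group came from separate cultures or mice, so p-values measure the spread between these libraries, which may be technical.

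Complement is a cascade of proteins that tags targets for removal. C1q binds a target and activates the proteases C1r and C1s, which cleave C4 and C2, and the resulting convertase cleaves C3. Factor B, the product of Cfb, forms the convertase of the alternative pathway with C3b. The fragments C3a and C5a signal through the receptors encoded by C3ar1 and C5ar1. In the brain, microglia are a main source of C1q, and C3 deposited on synapses is recognised by microglial complement receptor 3, made of the products of Itgam and Itgb2.

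Library titles fall into a pair of naming series, a SAN series (17 libraries, all treatments) and a second series (11 libraries, untreated and tau). The labels do not say what the difference marks. Library totals were 14469841 to 27229687 counts, and 0 of 378 pairs of libraries were identical. The 10 microglia markers summed to 3195 to 4270 counts-per-million units (CPM, a gene's counts scaled to the total of its library), of which Csf1r had the most. Of the markers more particular to microglia, Tmem119 was at 0.909 to 5.83 CPM and Siglech at 0 to 0.239 CPM, so Siglech was at 0 in 24 of 28 libraries. The 7 markers of border-associated macrophages and monocytes summed to 1089 to 1520 CPM in the SAN series and 2265 to 3492 CPM in the second series, most of it Pf4 and Mrc1. Astrocyte markers (8 genes) summed to 31.6 to 113 CPM, fibroblast markers (6 genes) to 0.658 to 64.6 CPM, oligodendrocyte markers (7 genes) to 108.7 to 181 CPM, most of it Mbp, and neuron markers (6 genes) to at most 3.42 CPM. In bulk RNA, fewer cells of a type and less RNA per cell cannot be told apart.

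A few libraries stood apart from their group in these genes. APOE3S/S untreated library 2 (SAN series) had 1460 CPM of C3, 16.8 CPM of Cfb and 13.4 CPM of C1rl, against 431, 2.15 and 4.02 CPM in the other APOE3S/S untreated library of that series. All 3 of its values lie within the range of the amyloid libraries given below. APOE3 tau library 2 (second series) had 0.982 CPM of Cfb and 1.502 CPM of C1rl, within the range of the untreated libraries of that series. APOE3S/S untreated library 4 (second series) had the highest C1q of all libraries, and APOE3S/S amyloid library 3 had 55.2 CPM of Cfb, against 11.4 and 22.4 CPM in the other libraries of its group. An untreated library thus had levels of C3, Cfb and C1rl like amyloid-treated ones, and a tau library levels of Cfb and C1rl like untreated ones, and whether their labels are right was not tested. Several results that rest on these libraries, though not all, are given with and without them.

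Promoter windows of 300 bases, from 250 before to 50 after the start of the gene, were given by RefSeq (GRCm38.p6) for 6 of the 9 genes: C1qb, C1qc, C3, C1rl, C3ar1 and C5ar1. They were searched on both strands for the interferon-stimulated response element (GAAANNGAA), the gamma-activated site (TTCNNNGAA) and the NF-kB consensus. The windows of C3 and C1rl are printed because these genes rose with tau in the comparisons that follow, and those of C1qc and C5ar1 because each holds a match, which stands in capitals. All are 5′ to 3′ on the strand of the gene. C3 is chr17:57228087-57228386 (minus strand), C1rl chr6:124492863-124493162 (plus), C1qc chr4:136892865-136893164 (minus) and C5ar1 chr7:16259289-16259588 (minus).
C3: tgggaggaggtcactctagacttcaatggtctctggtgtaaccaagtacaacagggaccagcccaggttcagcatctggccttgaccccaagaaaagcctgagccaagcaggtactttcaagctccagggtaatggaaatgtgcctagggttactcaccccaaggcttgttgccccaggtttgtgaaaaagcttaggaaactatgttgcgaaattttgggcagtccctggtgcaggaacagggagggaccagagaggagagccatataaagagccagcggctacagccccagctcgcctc
C1rl: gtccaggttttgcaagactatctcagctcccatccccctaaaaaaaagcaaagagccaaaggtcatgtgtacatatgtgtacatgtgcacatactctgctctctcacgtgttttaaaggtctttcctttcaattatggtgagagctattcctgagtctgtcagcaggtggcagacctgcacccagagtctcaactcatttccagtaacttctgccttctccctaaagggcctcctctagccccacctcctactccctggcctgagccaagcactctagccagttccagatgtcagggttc
C1qc: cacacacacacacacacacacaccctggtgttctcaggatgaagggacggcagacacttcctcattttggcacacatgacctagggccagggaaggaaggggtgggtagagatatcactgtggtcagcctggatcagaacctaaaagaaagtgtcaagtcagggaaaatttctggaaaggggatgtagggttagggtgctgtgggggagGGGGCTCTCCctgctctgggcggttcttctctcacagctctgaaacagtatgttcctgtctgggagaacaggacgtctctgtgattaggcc
C5ar1: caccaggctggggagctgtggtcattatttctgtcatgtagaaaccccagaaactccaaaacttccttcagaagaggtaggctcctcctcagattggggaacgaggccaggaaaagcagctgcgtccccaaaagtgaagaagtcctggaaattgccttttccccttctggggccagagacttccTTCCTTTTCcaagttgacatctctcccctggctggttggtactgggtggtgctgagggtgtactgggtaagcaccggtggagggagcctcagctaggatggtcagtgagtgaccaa

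The matches were an NF-kB consensus in C1qc, 41 bases before the RefSeq start, and a response element on the opposite strand of C5ar1, 66 bases before the RefSeq start. The GENCODE spans given below for C1qc and C5ar1 begin further upstream, at 136893065 and 16259540 on the minus strand. Both matches thus lie inside the GENCODE spans, and which start these cells use was not tested. For C3 and C1rl the RefSeq and GENCODE starts are the same. C3 and C1rl held none of the 3 motifs in these windows. Of 32851 promoter windows of the same length, 8.56% held the response element, 8.3% the gamma-activated site and 4.51% the NF-kB consensus. A match is a description of the letters only. No matches of different motifs overlapped in these windows.

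The C1q chains were among the most abundant transcripts of the cells. C1qa, C1qb and C1qc lie side by side on chromosome 4 (GRCm38, minus strand), at 136895917 to 136898803, 136880129 to 136886187 and 136889804 to 136893065, within 18675 bases. C1qa ranked between the 12th and the 38th most abundant gene in every library, at 1659 to 4459 CPM. C1qb was at 1180 to 2914 CPM and C1qc at 1328 to 3410 CPM. Together the chains made up 0.449 to 1.08% of all counts. The mature protein holds equal numbers of the chains. In counts, C1qa to C1qb was 1.415 ± 0.117 (1.12 to 1.605) and C1qc to C1qb 1.151 ± 0.0909 (SD, n = 28 libraries). The ratio of C1qc to C1qb differed by title series, at 1.093 ± 0.063 in the SAN and 1.241 ± 0.036 in the second series. The kit reads transcript 3′ ends, so these counts are not divided by gene length.

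In tau-treated cells C1qa was at 1974, 2518 and 2067 CPM (APOE3S/S, SAN series) and 3074, 2819 and 2797 CPM (APOE3S/S, second series). In APOE3 tau libraries it was at 1939, 1916 and 1886 CPM in the SAN series and 2722, 2119 and 2130 CPM in the second. The untreated libraries held 1820 and 2580 CPM (APOE3S/S, SAN), 2229 and 4459 CPM (APOE3S/S, second), 2056, 1659 and 1841 CPM (APOE3, SAN) and 2012, 2383 and 2575 CPM (APOE3, second). Tau and untreated ranges overlapped in both genotypes and both series, and did so for C1qb and C1qc too, except that C1qc was lower in all APOE3 tau libraries than in all APOE3 untreated libraries of the SAN series (1384, 1358 and 1366 CPM against 1773, 1544 and 1470 CPM). C1qb and C1qc varied together with C1qa, with correlations of 0.912 to 0.952 among the chains over the 28 libraries (0.923 to 0.962 after removing each group and series mean), which share library depth and composition.

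Tau was compared with untreated in a model over 22 libraries with a term for title series (edgeR's quasi-likelihood test), and a gene was called at an adjusted p under 0.05 over all 13912 genes tested. Fitted changes are log2 fold changes, where 1 is a doubling, on counts rescaled by edgeR's TMM method, so they can differ from the ratio of CPM values. In APOE3 cells, 3 of the 9 genes rose with tau (C3, Cfb and C1rl) and 0 fell, where 8.98% of all genes were called higher and 5.87% lower. In APOE3S/S cells, 2 rose (C3 and Cfb) and 0 fell, where 2.14% of all genes were called higher and 1.14% lower. C1q did not pass in either genotype. The log2 fold changes of C1qa, C1qb and C1qc were -0.12 ± 0.16, -0.27 ± 0.15 and -0.24 ± 0.12 in APOE3S/S cells and 0.07 ± 0.14, -0.08 ± 0.13 and -0.12 ± 0.11 in APOE3 cells (estimate ± standard error, as for every log2 fold change below).

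**Figure D1:**
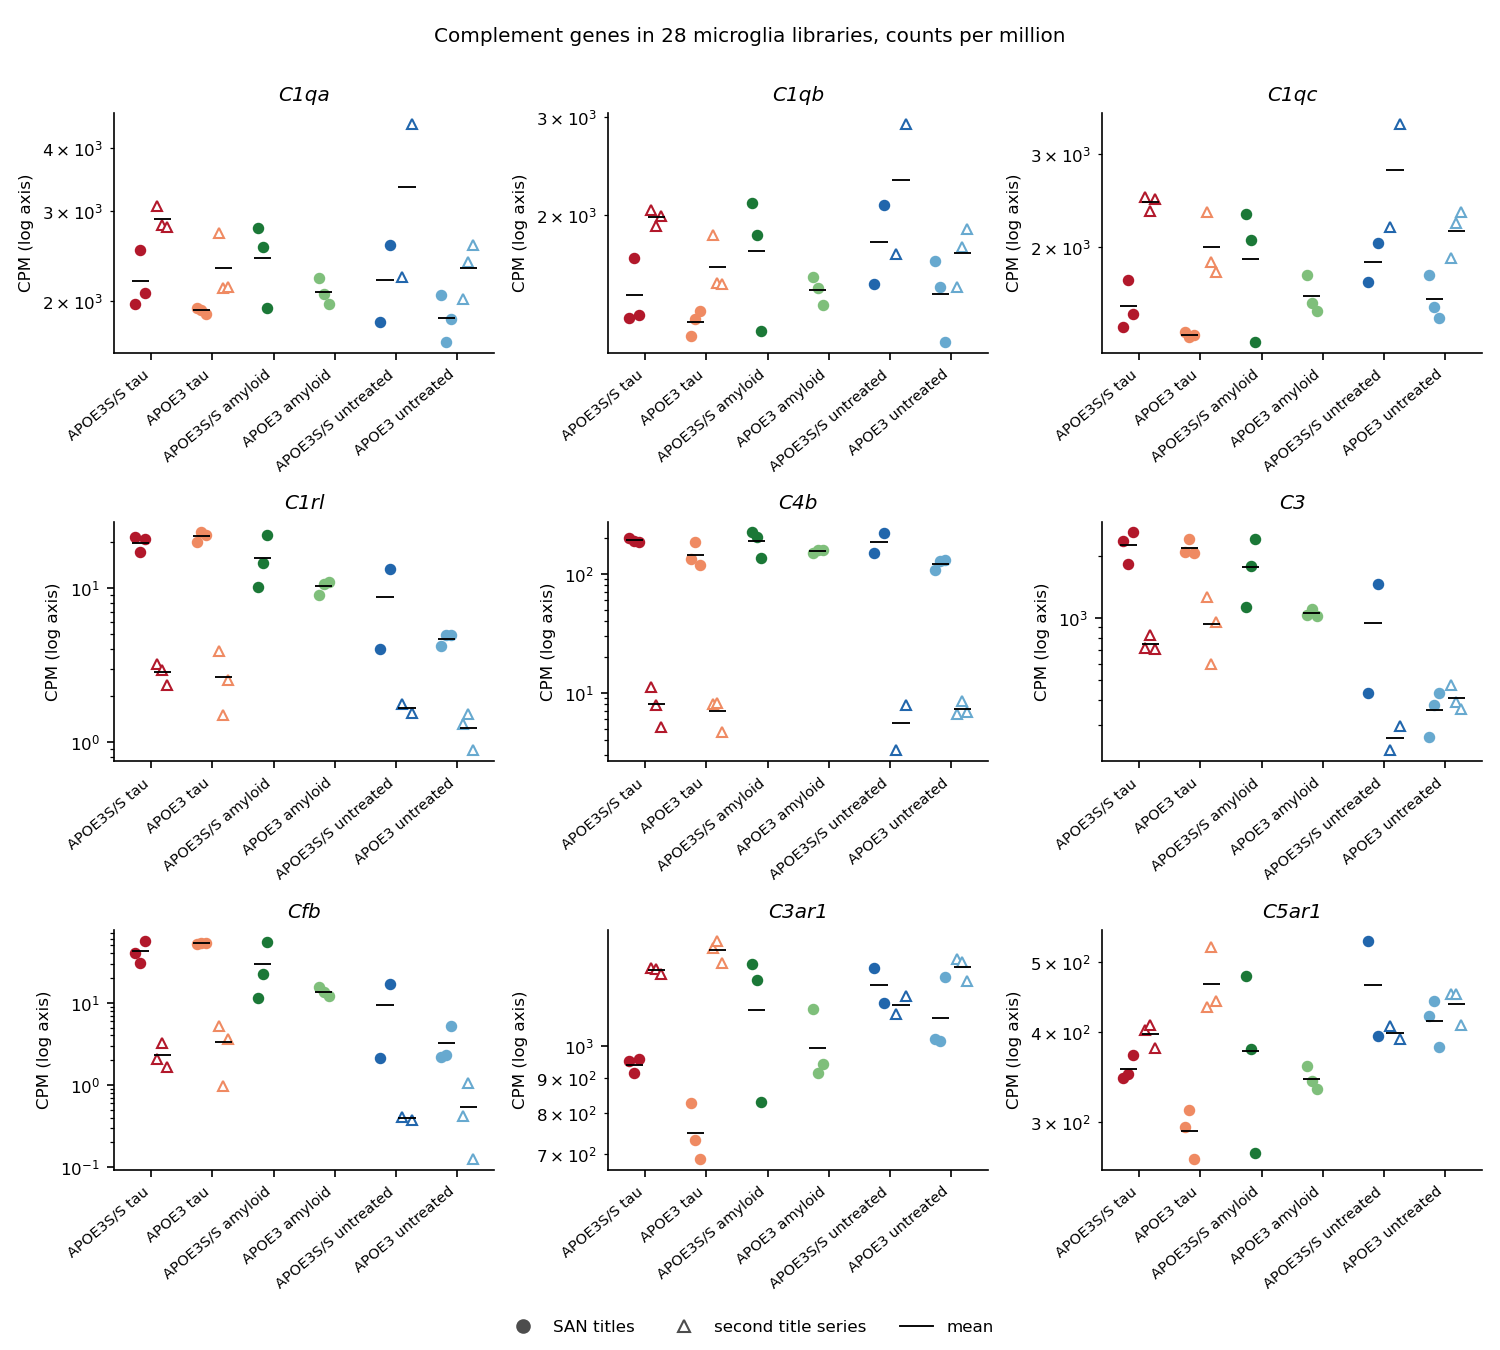
CPM (log axis) of the 9 complement genes in each library, by group, with circles for the SAN titles, triangles for the second title series and bars for the mean of each series. C3, Cfb and C1rl sit higher in tau than in untreated libraries of the same series, except Cfb and C1rl in APOE3 tau library 2, C4b differs between the title series in every tau and untreated group, and the C1q chains overlap between tau and untreated libraries, except C1qc in the SAN series of APOE3.

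C3, the central component that all complement pathways cleave, rose with tau in both genotypes. The gene spans 57203970 to 57228136 on chromosome 17 (GRCm38, minus strand), and its printed promoter window holds none of the motifs searched. APOE3S/S tau libraries had 2375, 1825 and 2612 CPM in the SAN series and 714, 828 and 708 CPM in the second, against 431 and 1460 CPM and 226 and 297 CPM in APOE3S/S untreated libraries of the same series. APOE3 tau libraries had 2088, 2419 and 2074 CPM (SAN) and 1262, 598 and 955 CPM (second), against 262, 379 and 433 CPM and 471, 388 and 359 CPM in APOE3 untreated libraries. Every tau library was above every untreated library of its genotype and series. The fitted change was 1.36 ± 0.37 in APOE3S/S cells (log2, adjusted p = 0.044) and 1.82 ± 0.33 in APOE3 cells (adjusted p = 0.000762).

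Cfb, which encodes factor B, had the largest fitted tau change of the 9 genes in both genotypes. It spans 34856374 to 34862518 on chromosome 17 (GRCm38, minus strand), 85 bases from its relative C2, and overlaps another gene model, Gm20547, that had 0 counts. Gm20547 lies on the same strand, at 34856412 to 34882042. How reads shared by Cfb and Gm20547 were counted is not stated in the labels, so the Cfb level is uncertain. APOE3S/S tau libraries had 41.0, 30.9 and 56.8 CPM (SAN) and 2.06, 3.20 and 1.65 CPM (second), against 2.15 and 16.8 CPM and 0.404 and 0.376 CPM in APOE3S/S untreated libraries. APOE3 tau libraries had 51.6, 53.5 and 53.7 CPM (SAN) and 5.275, 0.982 and 3.62 CPM (second), against 2.16, 2.31 and 5.20 CPM and 0.415, 1.06 and 0.125 CPM in APOE3 untreated libraries. Tau and untreated ranges were apart except in the second series of APOE3, where tau library 2 fell within the untreated range. The change was 2.23 ± 0.51 in APOE3S/S cells (log2, adjusted p = 0.0233) and 3.68 ± 0.50 in APOE3 cells (adjusted p = 0.000139). Depth is thin at the low end, since the lowest Cfb value rests on 2 counts and the highest on 966.

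C1rl encodes a C1r-like serine protease, which in humans is known to cleave the haptoglobin precursor. It spans 124493113 to 124510643 on chromosome 6 (GRCm38, plus strand), and an antisense gene at its start, Gm44096, had 8 counts in all libraries together. Tau libraries had 21.6, 17.2 and 20.9 CPM (APOE3S/S, SAN) and 3.20, 2.95 and 2.35 CPM (APOE3S/S, second), against 4.02 and 13.4 CPM and 1.75 and 1.54 CPM in APOE3S/S untreated libraries. In APOE3 cells the tau values were 20.0, 23.2 and 22.2 CPM (SAN) and 3.89, 1.502 and 2.54 CPM (second), against 4.205, 4.95 and 4.94 CPM and 1.295, 1.51 and 0.8765 CPM in untreated libraries. The groups overlapped only in the second series of APOE3, through tau library 2. The log2 change was 1.02 ± 0.29 in APOE3S/S cells, which missed the threshold in edgeR (adjusted p = 0.0549). DESeq2 called it (adjusted p = 0.0151), as did limma-voom. In APOE3 cells the log2 change was 1.81 ± 0.27 (edgeR adjusted p = 0.000206).

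The size of the APOE3S/S response turned on untreated library 2. Without it the APOE3S/S changes were 1.99 ± 0.36 for C3 (adjusted p = 0.00302), 3.65 ± 0.60 for Cfb (adjusted p = 0.00193) and 1.39 ± 0.33 for C1rl (adjusted p = 0.0151), so that all 3 genes were called. Without untreated library 1 the changes were 1.16, 1.73 and 0.69 (log2) and none of the 3 was called (adjusted p = 0.131, 0.0878 and 0.158). The C3 call was also lost without untreated library 3 or 4 or tau library 2, 4, 5 or 6 (adjusted p = 0.0528 to 0.114), and the Cfb call without tau library 4 or 6 (adjusted p = 0.0518 and 0.0699). Without the title-series term neither was called in APOE3S/S cells (adjusted p = 0.293 for C3 and 0.475 for Cfb). In APOE3 cells the 3 calls held in 12 of 12 fits that left out a library, with ranges of 1.63 to 2.01 for C3, 3.43 to 4.11 for Cfb and 1.71 to 1.97 for C1rl. The C1rl call was lost without the title-series term (2.11, adjusted p = 0.11) and in the second series alone (1.12, adjusted p = 0.133).

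Markers of other cells were set beside these changes. The astrocyte list was higher in every tau library than in every untreated library of its genotype and series, most of it Aldh1l1 and Aldoc, with Gfap at 0.181 to 8.29 CPM over all libraries. The list summed to 92.3 to 99.1 CPM in tau and 73.15 to 89.5 CPM in untreated libraries of APOE3S/S in the SAN series, and to 50.7 to 51.4 CPM and 39.5 to 50.3 CPM in the second. In APOE3 cells it summed to 72.5 to 86.9 CPM in tau and 45.2 to 61.5 CPM in untreated libraries of the SAN series, and to 42.3 to 51.4 CPM and 31.6 to 39.2 CPM in the second. Granulocyte markers (6 genes) moved with tau in the SAN series, at 15.8 to 23.6 CPM summed in tau libraries and 6.58 to 14.0 CPM in untreated ones. Most of that was S100a8, with S100a9 at 0 in every library. Fibroblast markers summed to 1.12 to 37.45 CPM in tau and 0.691 to 16.3 CPM in untreated libraries of that series, and border macrophage and monocyte markers to 1178 to 1306 CPM and 1161 to 1520 CPM. The part of any of these lists in the result was not tested.

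**Figure D2:**
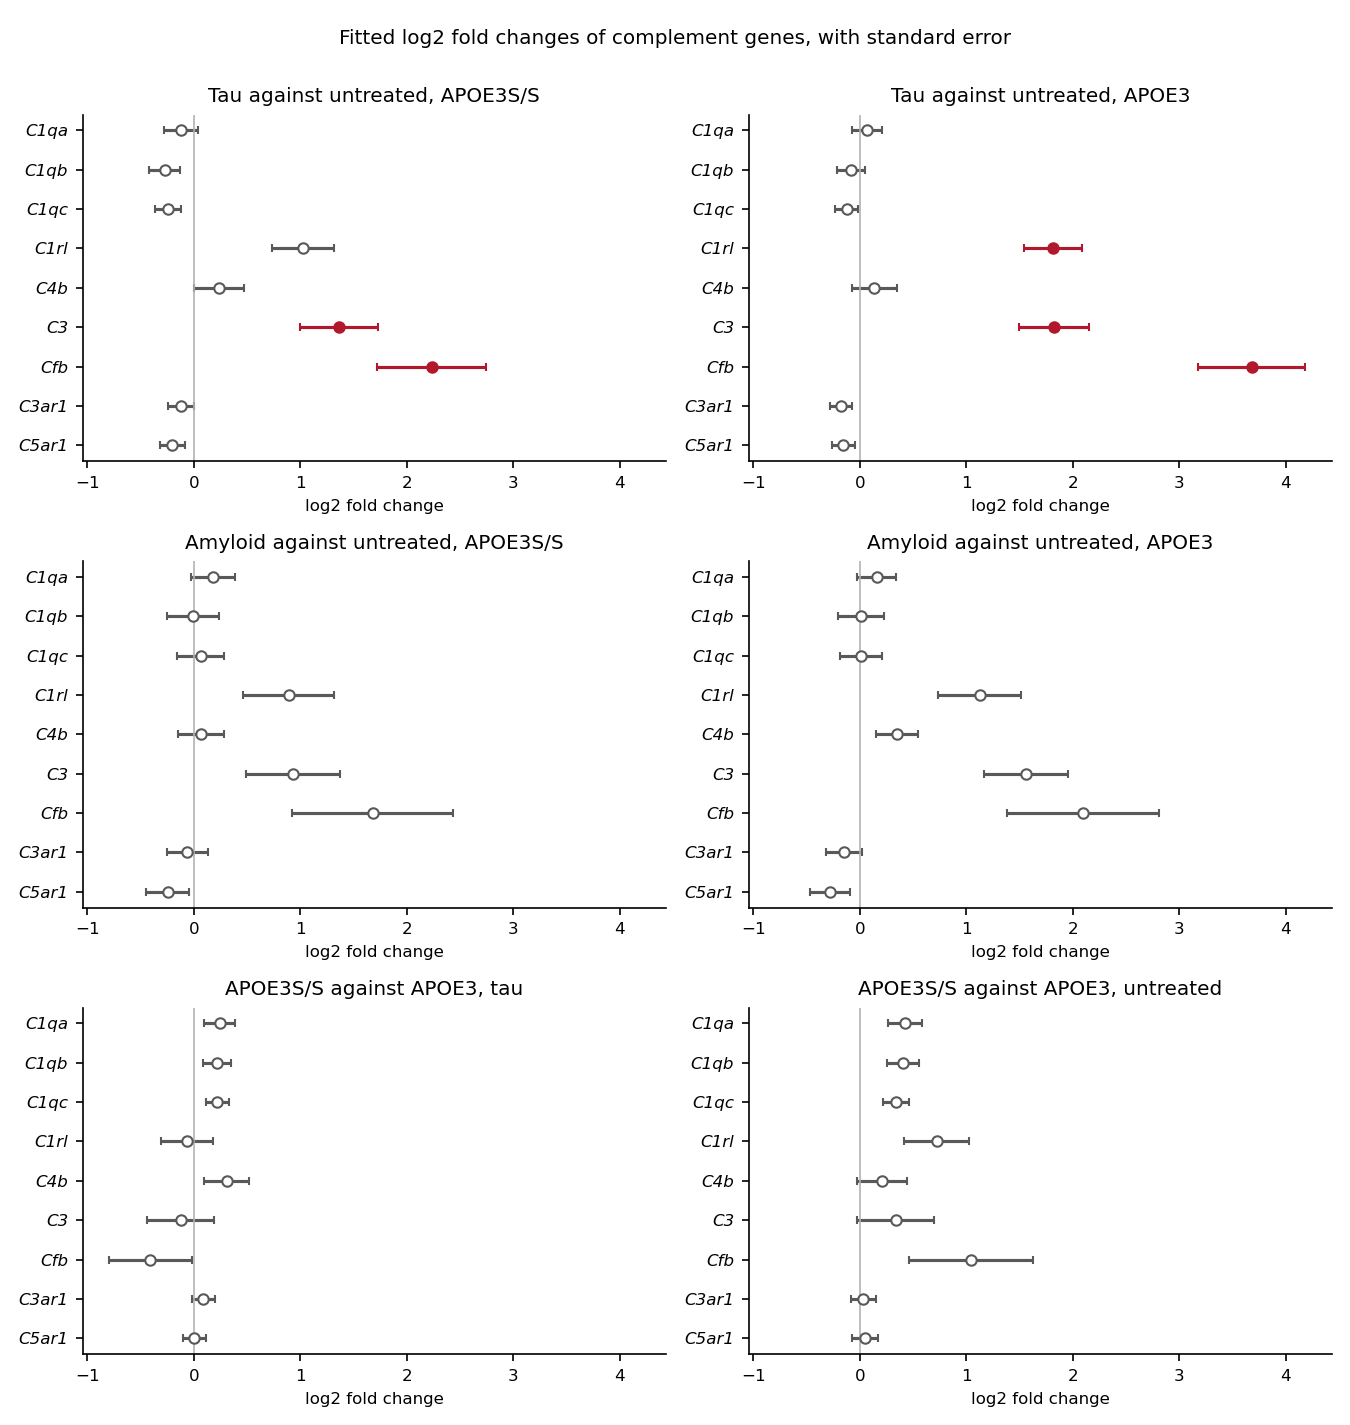
Fitted log2 fold change (x axis) of each complement gene in 6 comparisons, with bars for the standard error and filled red points for an adjusted p under 0.05. C3 and Cfb are filled for tau in both genotypes and C1rl for tau in APOE3, and no point is filled for amyloid or for APOE3S/S against APOE3.

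C4b encodes complement C4, the component cleaved by C1s, and spans 34728380 to 34743882 on chromosome 17 (GRCm38, minus strand). Its near-identical neighbour C4a was at 0.188 to 1.19 CPM, and how reads shared by the pair were counted is not stated in the labels, so both values are uncertain. C4b did not pass the test for tau, with a log2 change of 0.24 ± 0.23 in APOE3S/S cells and 0.14 ± 0.21 in APOE3 cells. Within the SAN series, it was at 201, 189 and 185 CPM in APOE3S/S tau, 133, 184 and 118 CPM in APOE3 tau, 223, 205 and 135 CPM in APOE3S/S amyloid, 149.9, 159 and 157 CPM in APOE3 amyloid, 150.4 and 219 CPM in APOE3S/S untreated and 108, 127 and 129 CPM in APOE3 untreated libraries. In the second series all 11 libraries lay between 3.28 and 11.3 CPM. The lowest SAN library, at 108 CPM, was thus far above the highest library of the second series.

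The receptors for the C3 and C5 fragments were expressed in every library and did not pass the test for tau. C3ar1 (chromosome 6, 122847138 to 122856161, minus strand) ranged from 688 to 1415 CPM and C5ar1 (chromosome 7, 16246743 to 16259540, minus strand) from 266 to 535 CPM. The log2 change of C3ar1 was -0.12 ± 0.12 in APOE3S/S and -0.18 ± 0.11 in APOE3 cells, and that of C5ar1 was -0.20 ± 0.12 in APOE3S/S and -0.15 ± 0.11 in APOE3 cells.

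The tau response of both receptors differed between title series. In the SAN series APOE3 tau libraries had 828, 733 and 688 CPM of C3ar1, against 1022, 1015 and 1255 CPM in APOE3 untreated libraries, with no overlap. In the second series they had 1384, 1415 and 1314 CPM, against 1333, 1319 and 1238 CPM, and the ranges overlapped. C5ar1 was at 295, 311 and 266 CPM in APOE3 tau and 421, 441 and 381 CPM in APOE3 untreated libraries of the SAN series. In the second series it was at 432, 525 and 442 CPM in APOE3 tau and 452.1, 451.6 and 409 CPM in APOE3 untreated libraries. The tau effect in the SAN series minus that in the second was -0.57 ± 0.12 for C3ar1 (log2, adjusted p = 0.00835) and -0.55 ± 0.14 for C5ar1 (adjusted p = 0.0253).

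Those were the 2 of 9 genes called lower for that difference in APOE3 cells, where 2.93% of all genes were called higher and 2.69% lower. The C3ar1 call held in 12 of 12 fits that left out a library, and the C5ar1 call in 6 of 12, being lost without APOE3 untreated library 1, 2 or 6 or APOE3 tau library 2, 4 or 6 (adjusted p = 0.0523 to 0.0837). The same difference for C3 was 1.46 ± 0.45 and missed the threshold (adjusted p = 0.0622). In APOE3S/S cells C3ar1 was at 951, 913 and 957 CPM in tau libraries of the SAN series, below 1292 and 1154 CPM in untreated ones, and at 1292, 1290 and 1269 CPM in tau libraries of the second series, above 1112 and 1180 CPM in untreated ones. The differences between series there were -0.44 ± 0.14 for C3ar1 (adjusted p = 0.126) and -0.27 ± 0.16 for C5ar1 (adjusted p = 0.366). None of the 9 was called there by edgeR (1 at an unadjusted p under 0.05, 1 called by DESeq2 and 0 by limma-voom), where 0.539% of all genes were called higher and 0.41% lower. Of 13912 genes, 2416 had an unadjusted p under 0.05 in that test. Fitted within the SAN series alone, both receptors fell with tau in APOE3 cells, by 0.46 ± 0.11 for C3ar1 (adjusted p = 0.0107) and 0.43 ± 0.12 for C5ar1 (adjusted p = 0.027) on the log2 scale.

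**Figure D3:**
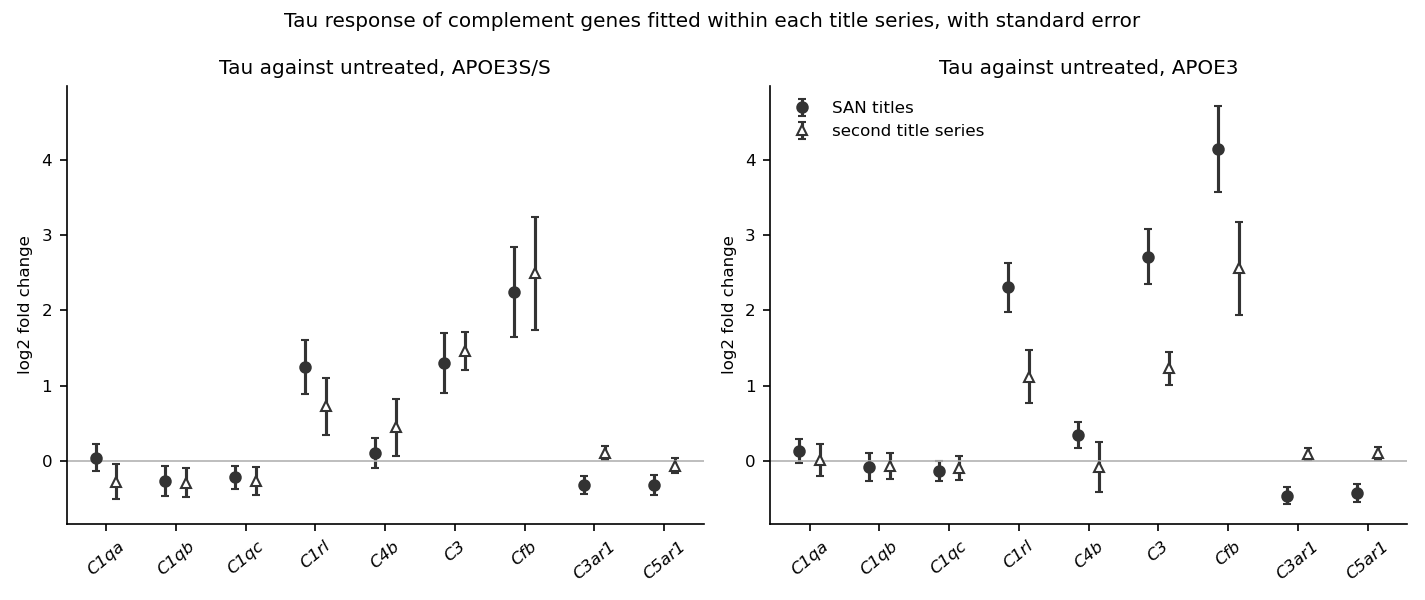
Log2 fold change of tau against untreated (y axis) fitted within each title series, with circles for the SAN titles, triangles for the second title series and bars for the standard error. C3, Cfb and C1rl lie above 0 in both series and both genotypes, and C3ar1 lies below 0 in the SAN series and just above 0 in the second.

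C3, Cfb and C1rl thus had positive tau effects in each series taken alone. The within-series changes of C3 were 1.30 ± 0.40 (SAN) and 1.46 ± 0.25 (second) in APOE3S/S cells and 2.71 ± 0.37 and 1.23 ± 0.22 in APOE3 cells. Those of Cfb were 2.24 ± 0.59 and 2.49 ± 0.75 in APOE3S/S cells and 4.14 ± 0.57 and 2.56 ± 0.62 in APOE3 cells. C3 was called in 3 of these 4 fits, all but the SAN series of APOE3S/S (adjusted p = 0.094), and Cfb in both series of APOE3.

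The SAN and second title series themselves differed at all 9 genes, a comparison added after the values had been seen. In the model of the 22 untreated and tau libraries, C4b (log2 4.42 ± 0.17), Cfb (3.87 ± 0.35), C1rl (2.57 ± 0.20) and C3 (1.03 ± 0.24) were higher in the SAN series. C1qa (-0.43 ± 0.11), C1qb (-0.39 ± 0.10), C1qc (-0.59 ± 0.08), C3ar1 (-0.45 ± 0.08) and C5ar1 (-0.25 ± 0.08) were lower there. The adjusted p ran from 3.29e-14 (C4b) to 0.0172 (C5ar1), where 19.7% of all genes were called higher and 18.9% lower. Astrocyte markers summed to 45.2 to 113 CPM in the SAN and 31.6 to 51.4 CPM in the second series, and granulocyte markers to 6.58 to 23.6 CPM and 2.39 to 5.77 CPM. The border macrophage and monocyte list was lower in every library of the SAN series than in any of the second. Among its members, Ccr2 and Ly6c2 ran the other way. Ccr2 had medians of 23.4 CPM in the SAN and 6.045 CPM in the second series, and Ly6c2 73.2 CPM and 0.717 CPM. The medians of Pf4, Mrc1, Cd163 and F13a1 were lower in the SAN series, at 55.3 CPM against 81.6 CPM for F13a1. The part of these lists in the differences was not tested.

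Amyloid was compared with untreated within the SAN series (11 libraries, 13872 genes). In APOE3S/S cells 0 of the 9 genes were called by edgeR (1 at an unadjusted p under 0.05, and 0 by DESeq2 and by limma-voom). In APOE3 cells 0 were called by edgeR (3 at an unadjusted p under 0.05, C3 alone by DESeq2 and 0 by limma-voom). Of all genes 0% were called higher and 0% lower in each genotype. The unadjusted p was under 0.05 for 1182 genes in APOE3S/S and 1824 in APOE3 cells. DESeq2 called 0 higher and 2 lower in APOE3S/S and 232 higher and 64 lower in APOE3 cells, and limma-voom called 0 in either.

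The amyloid values of C3, Cfb and C1rl lay above most untreated values. C3 was at 1135, 1787 and 2422 CPM in APOE3S/S amyloid libraries, against 431 and 1460 CPM in APOE3S/S untreated libraries, and at 1033, 1111 and 1020 CPM in APOE3 amyloid libraries, against 262, 379 and 433 CPM in APOE3 untreated libraries. Cfb was at 11.4, 22.4 and 55.2 CPM in APOE3S/S amyloid and 15.4, 13.6 and 12.2 CPM in APOE3 amyloid libraries. C1rl was at 10.25, 14.5 and 22.4 CPM in APOE3S/S amyloid and 9.11, 10.75 and 11.1 CPM in APOE3 amyloid libraries. In APOE3 cells the amyloid and untreated ranges of these 3 genes did not overlap, and in APOE3S/S cells they overlapped through untreated library 2. The APOE3 ranges of C4b (all higher with amyloid) and C5ar1 (all lower) did not overlap either. How many of all genes were apart in this way was not counted.

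Marker lists were also set beside the amyloid values. In APOE3 cells the astrocyte list summed to 72.1 to 113 CPM in amyloid and 45.2 to 61.5 CPM in untreated libraries of the SAN series, and the microglia list to 4237 to 4270 CPM and 3195 to 3432 CPM, neither overlapping. The astrocyte list of APOE3S/S cells summed to 74.97 to 101.6 CPM in amyloid and 73.15 to 89.5 CPM in untreated libraries, and the microglia list to 3715 to 3992 CPM and 3313 to 3964 CPM, both overlapping. Their part in the result was not tested.

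The log2 changes with amyloid were 0.93 ± 0.44 for C3, 1.68 ± 0.76 for Cfb and 0.89 ± 0.43 for C1rl in APOE3S/S cells (adjusted p = 0.586, 0.581 and 0.586). In APOE3 cells they were 1.56 ± 0.39, 2.09 ± 0.72 and 1.12 ± 0.39 (adjusted p = 0.212, 0.267 and 0.272). Without APOE3S/S untreated library 2, which leaves 1 untreated library assumed to vary like the other groups, the APOE3S/S changes were 2.14 ± 0.38, 3.87 ± 0.88 and 2.06 ± 0.38 and all 3 were called (adjusted p = 0.012, 0.041 and 0.0151). Without untreated library 1 the changes were 0.29, 0.82 and 0.23, and without amyloid library 3 they were 0.66, 0.88 and 0.56, with none called. The fitted log2 changes of the other 6 genes ran from -0.25 to 0.18 in APOE3S/S and from -0.28 to 0.35 in APOE3 cells, none of them past the threshold. C1qa was at 2779, 2556 and 1939 CPM in APOE3S/S amyloid and 2220, 2058 and 1967 CPM in APOE3 amyloid libraries, which overlapped the untreated values of the SAN series in both genotypes. C5ar1 was at 358, 342 and 333 CPM in APOE3 amyloid libraries, below 421, 441 and 381 CPM in all APOE3 untreated libraries of the series.

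Tau and amyloid were set side by side in the 17 SAN libraries (14136 genes). In APOE3S/S cells 0 of the 9 genes were called by edgeR (0 at an unadjusted p under 0.05, and 0 by DESeq2 and by limma-voom), where 0.0707% of all genes were called higher and 0.0778% lower. In APOE3 cells Cfb and C1rl were higher with tau than with amyloid, 2 of 9, where 4.15% of all genes were called higher and 3.2% lower. The log2 differences in APOE3 cells were 2.03 ± 0.54 for Cfb and 1.17 ± 0.31 for C1rl (adjusted p = 0.0351 for both), and 1.14 ± 0.34 for C3 (adjusted p = 0.0516). In APOE3S/S cells they were 0.55 ± 0.52, 0.35 ± 0.30 and 0.36 ± 0.33 for Cfb, C1rl and C3. The APOE3S/S counts turned on amyloid library 3. Without it edgeR called 237 of all genes higher and 213 lower with tau, against 10 and 11 with it. Of the 9 genes C3ar1 alone was then called, lower with tau (edgeR adjusted p = 0.0489). Leaving out any other APOE3S/S library gave at most 7 genes in either direction. All 3 C1q chains were lower in CPM in every APOE3 tau library than in every APOE3 amyloid library, though none was called. Their fitted differences were -0.04 ± 0.16 for C1qa, -0.10 ± 0.20 for C1qb and -0.16 ± 0.17 for C1qc. The chains vary together, and how many of all genes were apart in this way was not counted. Leaving out any 1 of the 6 APOE3 libraries of this comparison ended both calls, with adjusted p of 0.0632 to 0.132 for Cfb and 0.0575 to 0.126 for C1rl, while the differences stayed within 1.95 to 2.13 and 1.09 to 1.24.

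The Christchurch genotype was compared with APOE3 at each treatment, and none of the 9 genes was called at any. In tau libraries 0 were called by edgeR (0 at an unadjusted p under 0.05, and 0 by DESeq2 and by limma-voom), where 0.00719% of all genes were called higher and 0.00719% lower. In amyloid libraries 0 were called (0 at an unadjusted p under 0.05, and 0 by DESeq2 and by limma-voom), where 0% of all genes were called higher and 0% lower (1675 at an unadjusted p under 0.05, 59 by DESeq2 and 0 by limma-voom). In untreated libraries 0 were called by edgeR (4 at an unadjusted p under 0.05, and 0 by DESeq2 and by limma-voom), where 0.00719% of all genes were called higher and 0% lower. The unadjusted p was under 0.05 for 1077 of the 13912 genes. The 4 were the C1q chains, which vary together, and C1rl.

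The C1q chains were higher in APOE3S/S than in APOE3 cells in the estimate at each treatment, and none passed the threshold. Untreated APOE3S/S against APOE3 cells differed by 0.43 ± 0.16 for C1qa, 0.41 ± 0.15 for C1qb and 0.34 ± 0.12 for C1qc (log2, adjusted p = 0.642 for each). Without untreated library 4, the highest for C1q, the differences were 0.15, 0.22 and 0.18. In tau libraries the differences were 0.24 ± 0.14, 0.22 ± 0.13 and 0.22 ± 0.11 (adjusted p = 1 for each). All 3 APOE3S/S tau libraries lay above all 3 APOE3 tau libraries in both title series for C1qa and C1qc, and in the second series for C1qb. How many of all genes were apart in this way was not counted, and the chains vary together across libraries. In amyloid libraries the differences were 0.31 ± 0.18, 0.33 ± 0.22 and 0.32 ± 0.20 (adjusted p = 0.501, 0.549 and 0.519), and the ranges overlapped.

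C3 and Cfb gave no steady genotype difference. In tau libraries they differed by -0.12 ± 0.31 and -0.41 ± 0.39 (log2, APOE3S/S against APOE3), and in untreated libraries by 0.33 ± 0.36 and 1.04 ± 0.58. Without untreated library 2 the untreated differences turned to -0.22 ± 0.32 for C3 and -0.40 ± 0.66 for Cfb. C1rl differed by 0.72 ± 0.31 in untreated libraries (unadjusted p = 0.0294, adjusted p = 0.642) and by 0.36 ± 0.34 without that library. In amyloid libraries C3 differed by 0.84 ± 0.39 and Cfb by 1.19 ± 0.63 (adjusted p = 0.416 and 0.464), and by 0.57 and 0.39 without APOE3S/S amyloid library 3.

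The fitted genotype differences of the receptors over all tau libraries were 0.09 ± 0.11 for C3ar1 and 0.00 ± 0.11 for C5ar1, neither past the threshold. Within the SAN series all APOE3S/S tau libraries were above all APOE3 tau libraries for both genes (951, 913 and 957 CPM against 828, 733 and 688 CPM for C3ar1). In the second series all were below (1292, 1290 and 1269 CPM against 1384, 1415 and 1314 CPM for C3ar1). How many of all genes were apart in this way was not counted. Neither gene was called in any of 21 alternative fits by edgeR, DESeq2 or limma-voom, which include each series alone. The lowest adjusted p over these fits was 0.996 for C3ar1 and 0.698 for C5ar1. That the genotype difference ran in opposite directions in the series was not tested.

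Whether tau acted differently by genotype was tested by the interaction, and 0 of the 9 genes were called by edgeR (1 at an unadjusted p under 0.05, and 0 by DESeq2 and by limma-voom). Of all genes 0% were called higher and 0% lower (284 at an unadjusted p under 0.05, and 0 by the other tools). Cfb had the lowest p, with a response smaller by 1.45 ± 0.70 on the log2 scale in APOE3S/S than in APOE3 cells (difference -1.45, unadjusted p = 0.0499, adjusted p = 0.999). Without APOE3S/S untreated library 2 that difference was -0.0011, and that of C3 was 0.12 instead of -0.46. The same interaction for amyloid gave 0 of 9 (0 at an unadjusted p under 0.05, and 0 by DESeq2 and by limma-voom), where 0% of all genes were called higher and 0% lower (514 at an unadjusted p under 0.05, and 0 by the other tools). Its Cfb difference was -0.41 ± 1.01, an error wide enough that a difference of a log2 unit in either direction was not detectable with these libraries. Over 17 alternative fits, which include left-out libraries, that Cfb difference ran from -1.27 to 1.78. The amyloid interaction ran from -1.26 to 0.59 for C3 and from -0.89 to 0.94 for C1rl, so none of the 3 kept its sign.

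**Figure D4:**
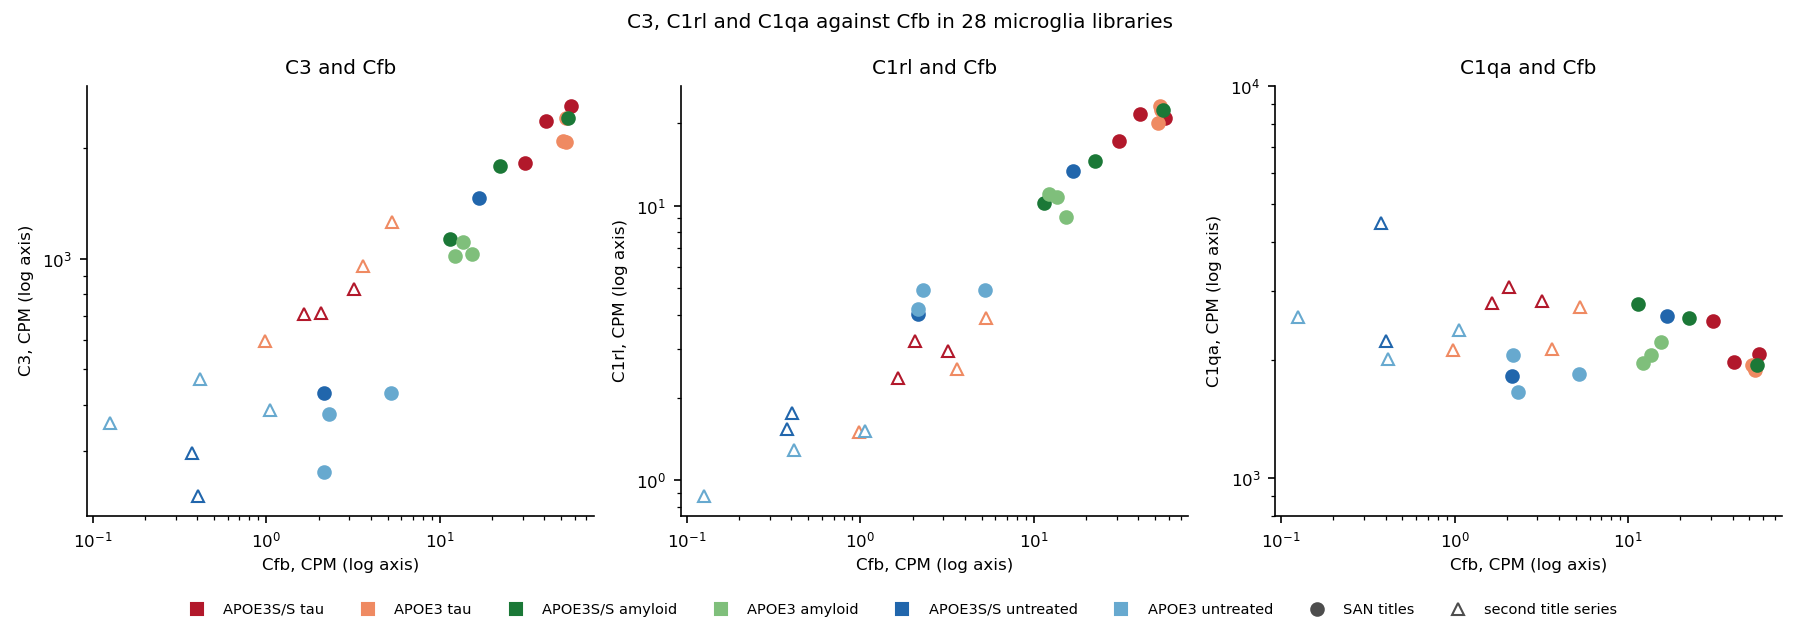
Levels of C3, C1rl and C1qa (y axes) against Cfb (x axis) in each of the 28 libraries, in CPM on log axes, coloured by group, with circles for the SAN titles and triangles for the second title series. C3 and C1rl climb with Cfb across libraries, and C1qa stays within 1659 to 4459 CPM while Cfb runs from 0.125 to 56.8 CPM.

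Across the 28 libraries C3, Cfb and C1rl moved together, as the plot against Cfb shows. The correlation of log2 CPM was 0.977 between Cfb and C1rl and 0.907 between C3 and Cfb. After removing the mean of each group and series, these were 0.908 and 0.851, which describes libraries that share depth, composition and the differences named above. C1qa correlated with Cfb at -0.31 (0.094 within groups and series). The genes outside the set most like C3, among 9726 with a mean of at least 5 CPM, were Ly6i, Agrn, Clec4a1, Ddx58 and Ddx60 (r = 0.975 to 0.983, and 0.914 to 0.96 within groups and series). Ddx58 encodes the RNA sensor RIG-I, and Ddx58 and Ddx60 are known as interferon-induced genes. Those most like Cfb were Clec4e, Acp2, Smpdl3b, Ly6c2 and Adgre1 (r = 0.977 to 0.983, and 0.805 to 0.914 within groups and series), where Clec4e encodes the receptor Mincle and Adgre1 the macrophage marker F4/80. Ly6c2 also stands on the list of border macrophage and monocyte markers, at 2.955 to 174 CPM in the SAN series and 0.0449 to 4.93 CPM in the second. Those most like C1qa were Fabp3, Cfp, Ly86, Scamp2 and Npc2 (r = 0.849 to 0.887, and 0.764 to 0.956 within groups and series), and Cfp encodes properdin, the stabiliser of the alternative pathway convertase.

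A wider list of 53 complement genes put the 9 in context, with 30 of them past the filter in the tau model. In APOE3S/S tau cells, 2 of 30 rose (C3 and Cfb) and 0 fell, where 2.14% of all genes were called higher and 1.14% lower. In APOE3 tau cells, 6 of 30 rose and 0 fell, where 8.98% of all genes were called higher and 5.87% lower. The median log2 change of the list was -0.12 in APOE3S/S and -0.05 in APOE3 cells, beside -0.01 and -0.02 over all genes tested. The genes outside the 9 that rose in APOE3 cells were C1s1 (3.22 ± 0.70, adjusted p = 0.00285), C1ra (0.85 ± 0.17, adjusted p = 0.00156) and Itgam (0.46 ± 0.11, adjusted p = 0.00608).

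C1s1 and C1ra encode the proteases C1s and C1r of the classical pathway. C1s1 was at 9.25, 8.975 and 8.61 CPM in SAN libraries of APOE3 tau, against 0.1705, 0.271 and 0.461 CPM in APOE3 untreated libraries of that series, which rest on 3 to 7 counts. In the second series it was at 1.39, 0.404 and 1.09 CPM in APOE3 tau and 0.7253, 0.302 and 0.125 CPM in APOE3 untreated libraries, which overlapped. APOE3S/S tau libraries had 7.145, 5.96 and 7.86 CPM of C1s1 in the SAN series, against 0.397 and 2.21 CPM in APOE3S/S untreated libraries. C1ra was at 66.8 to 77.7 CPM (SAN) and 19.1 to 27.7 CPM (second) in APOE3 tau, and 27.05 to 34.9 CPM and 18.7 to 18.9 CPM in APOE3 untreated libraries. Both genes have near-identical copies (C1rb and C1s2), so the split of reads between them is uncertain.

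In tau against amyloid, 4 of 32 list genes tested were called higher in APOE3 cells (C1ra, C1s1, C1rl and Cfb) and 1 lower (C5ar2, -0.92 ± 0.21, adjusted p = 0.0211), where 4.15% of all genes were called higher and 3.2% lower. For APOE3S/S cells 0 of the list were called in either direction by edgeR (3 at an unadjusted p under 0.05), where 0.0707% of all genes were called higher and 0.0778% lower. Of 14136 genes, 1336 had an unadjusted p under 0.05 in that test. C5ar2 encodes the second C5a receptor. Several terminal components, named here for their low counts, were at or near 0: C7, C8a and C8b had 0 counts in all libraries, C9 had 1 and Hc, the gene of C5, had 2. Cfd, the protease that cleaves factor B, had 3 counts in all.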

How the data were processed

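Deposited gene counts (unnormalised whole numbers, checked in the files) came from 28 libraries made with a QuantSeq 3′ forward kit, per the labels' protocols. A table of 22 untreated and tau libraries and one of 11 untreated and amyloid libraries had 5 libraries in common, each counted once. The build (GRCm38, mm10) and DESeq2 1.38.3 are named per the submitters' processing notes. The aligner and counter: not given in the sources used here.

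Of 60976 rows per table, 6360 held no number, and these, 81 exact repeats and 99 further rows sharing a symbol (the row with most counts was kept) were dropped. Rows under 24 symbols that had been turned into dates were kept and tested unnamed. Groups came from the labels. Counts were scaled by TMM, filtered by filterByExpr and analysed by the quasi-likelihood test of edgeR 4.0.16, adjusting p over every gene in the fit by Benjamini and Hochberg's method (call at 0.05). Standard errors are the log2 fold change over the square root of F. Alternatives used RLE scaling, no filter, DESeq2 1.42.0, limma-voom (limma 3.58.1), left-out libraries, each title series and title numbers as a block. Gene spans are from GENCODE (GRCm38) and promoter windows from RefSeq. The tests were checked on simulated data.

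The members, lists and motifs were chosen with earlier results of these data known. Genes named beyond the 9 were those of the wider list called in a comparison (at most the 6 smallest p) and the 5 most correlated with C1qa, C3 and Cfb (log2 CPM, prior count 2).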

Additional observations from a re-analysis of the deposited data

Results flagged for a closer look

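In groups of 4 to 10 libraries, 36 combinations of gene and group were screened for a library far from the rest, a screen that flags about 1 in 20 by chance, and 4 values in 3 libraries were picked out. C3 at 1460 CPM and Cfb at 16.79 CPM in APOE3S/S untreated library 2 stood above the other 3 libraries of that group, which had at most 431 CPM and 2.15 CPM. C5ar1 at 535.3 CPM stood apart in APOE3S/S untreated library 1, above 390 to 408 CPM in the others. C1qa at 2722 CPM stood apart in APOE3 tau library 1, above 1886 to 2130 CPM in the others. All of these groups mix the title series.

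The tau response of APOE3 cells differed between title series for 2 receptors, by -0.5706 for C3ar1 (log2, SAN series minus second series) and by -0.5478 for C5ar1. The same difference was tested in APOE3S/S cells and was not called there.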

How the results depend on the processing

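Of 235 counts of called genes under alternatives, 199 were within 1.5 times the reported count, and 36 moved. Of 382 values of called genes, 0 changed direction and 35 lost the call. Among 1733 values of uncalled genes, 119 changed sign and 37 became calls. For tau in APOE3 cells (3 called), 5 were called in the SAN series alone, and 3 in every fit that left out a library. For tau in APOE3S/S cells (2 called), 0 were called in the SAN series alone, 1 in the second series alone and 0 without the title-series term, and 0 to 3 with a library left out. Leaving out APOE3S/S untreated library 2 and APOE3 tau library 2 together, chosen after seeing the data, gave 3 calls in each genotype. With no low-count filter the standard errors shrank (Cfb with tau in APOE3, 0.17 against 0.50), and the counts were 4 for untreated APOE3S/S against APOE3, 1 for the genotype difference in tau response, 5 for the title-series difference in APOE3, 3 for amyloid in APOE3S/S, 3 in APOE3, 3 for APOE3S/S against APOE3 with amyloid and 1 for tau against amyloid in APOE3S/S. DESeq2 called 1 for the title-series difference in APOE3S/S and 1 for amyloid in APOE3, where the fit of all 17 SAN libraries also called 1. With a library left out, the title-series difference gave 0 to 1 calls in APOE3S/S and 1 to 3 in APOE3, amyloid in APOE3S/S gave 0 to 3, and tau against amyloid gave 0 to 1 in APOE3S/S and 0 in every such fit in APOE3. The cause was not tested. Whether title numbers pair the libraries is not stated in the labels. The 13 same-numbered pairs correlated at -0.119 to 0.175, with 2 over 0.1. These correlations are of deviations from means of 2 or 3 libraries, which offset each other, so they cannot decide it. With the number as a replicate block 0 of the 9 genes were called in the 5 genotype comparisons, as without it. Over all genes the block called 148 higher and 52 lower for APOE3S/S against APOE3 with amyloid, against 0 and 0 without it. Amyloid comparisons rest on 2 or 3 libraries a group, and Cfb and C1rl in the second series on few counts.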

Other observations

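Other complement genes also differed between title series. Of the 30 genes of the wider list tested in the 22 untreated and tau libraries, 10 were higher and 15 lower in the SAN series, with a median log2 difference of -0.24 beside 0.01 over all genes, of which 19.7% were called higher and 18.9% lower. Of the 9 receptors tested, 8 were lower there and 0 higher, among them Itgam (-1.01 ± 0.08, adjusted p = 2.76e-09) and Itgax (-1.62 ± 0.19, adjusted p = 4.08e-07), which encode the alpha chains of complement receptors 3 and 4. Of the 8 core components tested, 5 were higher and 1 lower, and of the 8 initiation genes 3 were higher and 5 lower. Masp1, a protease of the lectin pathway, was lower (-1.91 ± 0.19, adjusted p = 5.56e-08), as was Fcna, which encodes a ficolin (-0.73 ± 0.11, adjusted p = 1.36e-05). C1ra (1.16 ± 0.13, adjusted p = 2.17e-07) and C1s1 (3.10 ± 0.49, adjusted p = 2.94e-05) were higher.

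Itgam, the partner of Itgb2 in the C3 fragment receptor, was at 213, 228 and 216 CPM in APOE3S/S tau and 205, 209 and 209 CPM in APOE3 tau libraries of the SAN series. The untreated libraries of that series held 137 and 147 CPM (APOE3S/S) and 137, 122 and 142 CPM (APOE3), below every tau library. In the second series the APOE3S/S tau and untreated ranges overlapped, at 317.5 to 343 CPM and 304 to 343.5 CPM. The APOE3 ranges there did not overlap, at 387, 369 and 389.9 CPM in tau and 337, 330.0 and 315 CPM in untreated libraries. The tau effect on Itgam in the SAN series minus that in the second was 0.69 ± 0.14 in APOE3S/S (adjusted p = 0.0214) and 0.47 ± 0.13 in APOE3 cells (adjusted p = 0.0324).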
